A study of Homo sapiens with 8 samples.

Results

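Protocadherins are the largest group of the cadherin superfamily. They were followed here as every gene whose symbol starts with PCDH and that had an array probe set of its own. The rule found 29 such genes among the 18377 genes measured, and each of the 29 had 1 probe set. Of these, 18 belonged to the beta cluster of chromosome 5, with 16 coding genes and the 2 pseudogenes PCDHB17P and PCDHB18P, and 11 were non-clustered genes on chromosomes 4, 5, 10, 13 and X. The genes of the alpha cluster shared 1 probe set annotated to 15 symbols, and the gamma cluster was not analysed here.

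RNA was hybridised to 8 Affymetrix Human Gene 1.0 ST arrays, 2 biological replicates in each of 4 groups, from a pair of stable lines of SHSY5Y, a human neuroblastoma cell line of neural crest origin. The groups were V71 differentiated (DF), V71 undifferentiated (NDF), PLKO DF and PLKO NDF, named after the codes in the sample titles. All cells grew on laminin. NDF cells were kept in growth medium with serum, whereas DF cells received 10 µM retinoic acid for 5 days and then, without serum, 2 nM BDNF for 3 days. Both lines were made with viruses, one carrying an shRNA and the other the pLKO.1-Puro control vector, and were kept under puromycin selection. The treatment label names V71 as control and PLKO as the shRNA line, while the methods give pLKO.1-Puro as the control vector. Which line carries the shRNA was therefore not taken as settled, and the gene it targets was not analysed here. Each condition was measured in 1 line of each kind, so a difference between V71 and PLKO cannot be told apart from a difference between any 2 independently derived lines.

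Clustered protocadherins lie in tandem arrays of variable exons, each behind a promoter of its own. Single neurons express different subsets of them, their extracellular cadherin repeats bind the same isoform on a facing membrane, and in mice this gives neurons an identity for self-avoidance and axon tiling. Beta genes are each encoded by a single exon and have no shared constant cytoplasmic domain, unlike alpha and gamma genes. Non-clustered protocadherins, grouped by their cytoplasmic motifs into delta-1 and delta-2 classes, act in adhesion, axon growth and synapse formation. Most clustered promoters carry a conserved sequence element with a CGCT core, and promoter choice depends on the insulator protein CTCF, on cohesin and on DNA methylation.

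The promoters of the beta genes are shown because the results below turn on genes of that cluster that changed together. RefSeq promoter windows of GRCh38.p14, 250 bases before to 50 bases after each gene start, were at hand for 23 of the 29 protocadherins and for 14 of the 18 beta genes, all on the plus strand of chromosome 5. The word GGTGGCGCT, taken from these windows themselves as the longest word that the most beta promoters share, occurred in 13 of the 14 beta windows (92.9%). Both strands were searched. It occurred in 0 of 13 alpha, 0 of 20 gamma and 0 of 9 non-clustered windows, and in 169 of 27305 genes of the whole promoter table (0.619%). Because the word was chosen on the beta promoters, its share among them is a description. In the sequences below, 30 bases each and printed 5′ to 3′, capitals mark the word or, in PCDHB1, its nearest stretch.
PCDHB1, chr5:141051338-141051367: gctagcctttGGTGGTGCTgcagttagagg
PCDHB2, chr5:141094545-141094574: agagacgcggGGTGGCGCTgcagccttaga
PCDHB5, chr5:141135180-141135209: taggacgcctGGTGGCGCTgcaggctaaga
PCDHB8, chr5:141177778-141177807: gaggacccgtGGTGGCGCTgcaggataaga
PCDHB10, chr5:141192300-141192329: gaggccacacGGTGGCGCTgcaggctaaag
PCDHB13, chr5:141213866-141213895: gaggacgcgtGGTGGCGCTgcaggataaga
PCDHB14, chr5:141223264-141223293: ggagacacatGGTGGCGCTacaggataaga
PCDHB15, chr5:141245315-141245344: gacaacgcatGGTGGCGCTgcaggctaagg
PCDHB1 lacked the word and its nearest stretch differed at 1 base (C6T, counted from 1 at the 5′ end of the word). A stretch with at most 1 difference was present in 14.5% of the genes of the whole promoter table. It was present in 1 of 13 alpha, 4 of 20 gamma and 0 of 9 non-clustered genes. The word began 60 bases before the gene start in PCDHB2, 16 in PCDHB5, 2 in PCDHB8, 43 in PCDHB10 and PCDHB13, 69 in PCDHB14 and 70 in PCDHB15. The 14 windows cover the beta genes other than PCDHB6, PCDHB11, PCDHB17P and PCDHB18P.

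The identity of the cells and the arrays was checked first. Of 12 genes that mark noradrenergic neuroblasts, 11 lay above the array median in every group and none below the lower quartile. Spearman correlation over all probe sets was at least 0.9947 between replicates and at most 0.9931 between groups, and array medians lay between 4.6 and 4.68 on the log2 scale. No array stood apart. All values below are the deposited log2 intensities of one probe set, so the level of one gene is not set against that of another. Beta genes are closely similar in sequence. Probe sequences were not examined, and a signal may be shared between paralogs, so that the count of beta genes that changed is not a count of independent genes.

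Most of the beta cluster was measurable in these cells. A probe set was taken as dim where its group mean lay below the mean lower quartile of the arrays of that group, which was 3.02 in V71 DF, 3.03 in V71 NDF, 3.04 in PLKO DF and 3.03 in PLKO NDF. Among the beta genes, PCDHB1 was dim in all 4 groups and the other 17 in none. PCDHB8 cleared the limit narrowly in V71 NDF, with a mean of 3.04. PCDHB1 and PCDHB8 lay below the array median in every group, and PCDHB7 and PCDHB13 lay above it in only 1. Among the non-clustered genes, PCDH15, a component of the tip link of hair cells, and PCDH19, an X-linked gene in which loss of function causes epilepsy, were dim in all groups. PCDH7 was dim only in PLKO NDF and PCDH20 only in PLKO DF. The median SD within a group was 0.08 for beta genes and 0.06 for non-clustered genes (n = 2 arrays in each group). The largest was 0.37, for PCDHB13 in V71 DF.

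Averaged over its 18 genes, each centred on its mean over the 8 arrays, the beta cluster stood at 0.04 and 0.11 in V71 DF, -0.59 and -0.52 in V71 NDF, 0.71 and 0.75 in PLKO DF, and -0.25 and -0.27 in PLKO NDF. PLKO DF was the highest group and V71 NDF the lowest, and no 2 groups overlapped. The 11 non-clustered genes averaged 0.03 and -0.06 in V71 DF, -0.14 and -0.14 in V71 NDF, 0.23 and 0.10 in PLKO DF, and -0.02 and 0.01 in PLKO NDF. These averages spanned a smaller range, and the values of V71 DF and PLKO NDF overlapped. They include 7 genes that lay below the array median in every group, and single non-clustered genes differed more, as given below. The arrays measured whole cultures, so that fewer cells expressing a gene and less RNA in each cell cannot be told apart.

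**Figure D1:**
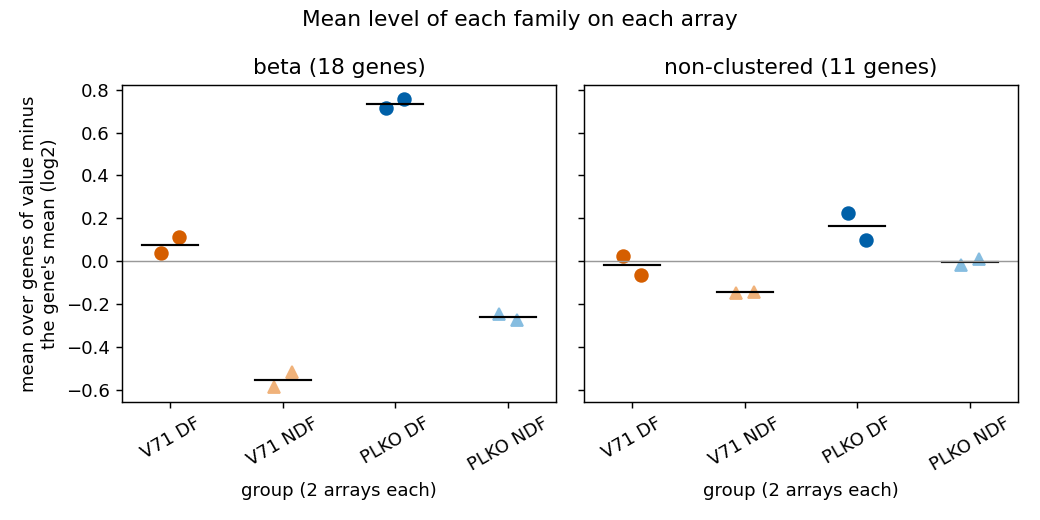
Mean centred log2 value (y axis) of the 18 beta cluster genes and of the 11 non-clustered protocadherins on each of the 8 arrays, 1 point per array and a black bar at each group mean, with V71 and PLKO arrays in DF and NDF. The beta cluster lies between 0.71 and 0.75 in PLKO DF and between -0.59 and -0.52 in V71 NDF. The average of the non-clustered genes stays between -0.14 and 0.23.

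The first question was what differentiation did to protocadherin expression in each line. A gene was called where limma's p, adjusted by Benjamini-Hochberg over all probe sets, was under 0.05 and the fold at least 1.5. Upon differentiation of V71, 11 of the 18 beta genes and 2 of the 11 non-clustered genes rose and none fell, where 3.98% of all genes measured rose. In PLKO, 15 of the 18 beta genes and 2 of the 11 non-clustered genes rose and none fell, where 2.88% of all genes rose. The median DF minus NDF difference of the beta genes was, in log2 units, 0.70 for V71 and 1.10 for PLKO, against 0.00 for V71 and 0.01 for PLKO over all genes. For the non-clustered genes it was 0.01 in V71 and -0.02 in PLKO. Of those 11 genes, 7 lay below the array median in every group, so their median says little about the 4 above it. Without moderation of the variance, 6 beta genes were called in V71.

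PCDHB17P, a pseudogene that lies between PCDHB6 and PCDHB7, changed most in both lines. Its values were 4.82 and 4.63 in V71 DF against 3.69 and 3.75 in V71 NDF, and 5.67 and 5.72 in PLKO DF against 4.11 and 4.32 in PLKO NDF. Both DF groups lay above both NDF groups without overlap. The rise was 1.0 ± 0.10 in V71 (log2 difference ± SE, fold 2.01, limma adjusted p = 0.000177) and 1.48 ± 0.10 in PLKO (fold 2.79, adjusted p = 1.27e-05). PCDHB5, a single-exon adhesion receptor like the other coding genes of the cluster, followed closely. It had 6.71 and 6.77 in V71 DF against 5.92 and 5.60 in V71 NDF, and 7.54 and 7.62 in PLKO DF against 6.23 and 5.98 in PLKO NDF. DF exceeded NDF on every array within either line, by 0.98 ± 0.12 in V71 (adjusted p = 0.000647) and 1.47 ± 0.12 in PLKO (adjusted p = 4.17e-05).

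PCDHB10, PCDHB13 and PCDHB14 lie in the second part of the cluster. PCDHB14 had 7.07 and 6.96 in V71 DF against 6.06 and 6.06 in V71 NDF, and 7.18 and 7.27 in PLKO DF against 6.08 and 5.78 in PLKO NDF. The lines were close to each other in both conditions. It rose by 0.96 in V71 (adjusted p = 0.000338) and by 1.30 in PLKO (adjusted p = 4.06e-05). PCDHB10 had 7.41 and 7.49 in V71 DF against 6.36 and 6.83 in V71 NDF, and 7.92 and 7.93 in PLKO DF against 6.59 and 6.55 in PLKO NDF. Its V71 NDF replicates straddled both PLKO NDF values. It rose by 0.86 in V71 (adjusted p = 0.00229) and by 1.35 in PLKO (adjusted p = 0.000128). PCDHB13 had 3.78 and 4.30 in V71 DF against 3.41 and 3.32 in V71 NDF, and 5.40 and 5.30 in PLKO DF against 4.03 and 3.82 in PLKO NDF. The gap between its V71 DF replicates was the widest of any protocadherin. The rise was 1.43 ± 0.15 in PLKO (adjusted p = 0.000215) and 0.68 ± 0.15 in V71 (adjusted p = 0.0175). In V71 that call ended without V71 DF replicate 2 (0.42, adjusted p = 0.0811), without V71 NDF replicate 2 (0.72, adjusted p = 0.0621) and without V71 NDF replicate 3 (0.63, adjusted p = 0.0933).

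**Figure D2:**
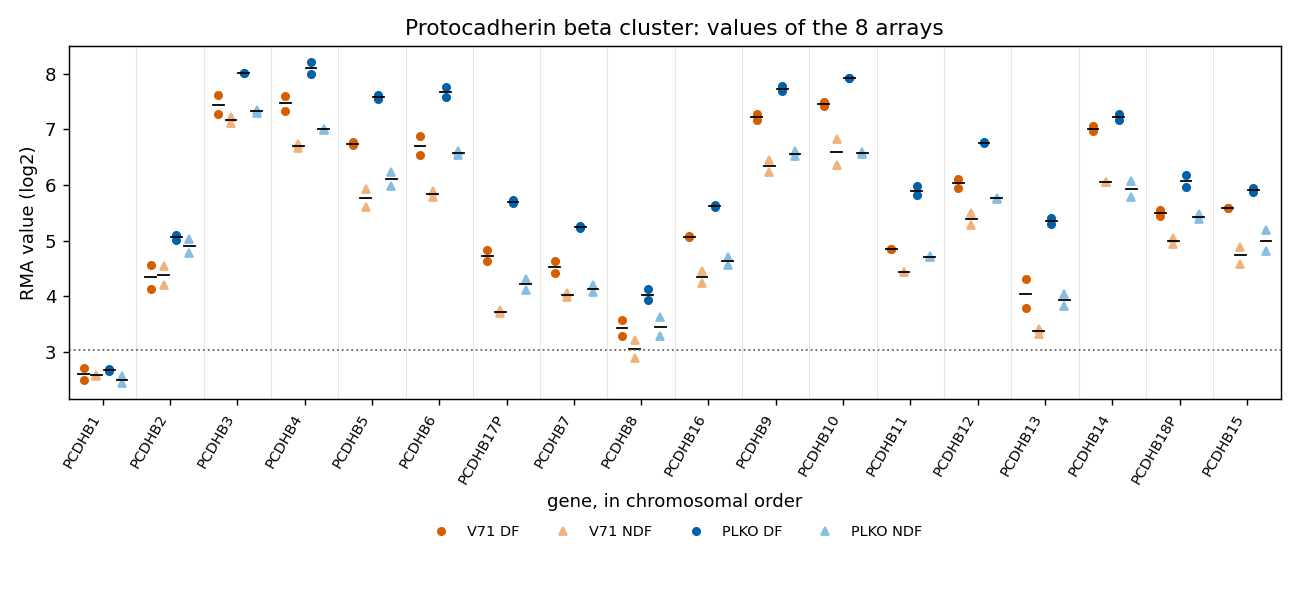
Log2 intensity (y axis) of the 18 beta cluster genes in chromosomal order (x axis) on each of the 8 arrays, with V71 and PLKO in separate colours, circles for DF and triangles for NDF, black bars for group means and a dotted line at the mean lower quartile. PCDHB1 lies under the dotted line in all groups, and PCDHB17P reaches 5.67 and 5.72 in PLKO DF against 4.11 and 4.32 in PLKO NDF.

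Of the remaining coding genes, PCDHB4, PCDHB6, PCDHB9, PCDHB12, PCDHB15 and PCDHB16 rose in both lines, by 0.64 to 0.87 in V71 and by 0.91 to 1.16 in PLKO. PCDHB9 may stand for them, with 7.16 and 7.28 in V71 DF against 6.24 and 6.45 in V71 NDF, and 7.68 and 7.77 in PLKO DF against 6.62 and 6.51 in PLKO NDF. DF values of either line were above the NDF values of both. PCDHB12, with a rise of 0.64 in V71, came under the 1.5-fold threshold without V71 DF replicate 2 (0.55, adjusted p = 0.0212) or without V71 NDF replicate 2 (0.54, adjusted p = 0.0212).

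A further 4 genes, PCDHB3, PCDHB7, PCDHB11 and PCDHB18P, rose in PLKO and were not called in V71. PCDHB7 had 5.27 and 5.22 in PLKO DF against 4.07 and 4.20 in PLKO NDF, and rose by 1.11 (adjusted p = 5.77e-05). Its V71 values were 4.42 and 4.63 in DF against 4.05 and 3.98 in NDF, a difference of 0.51 (adjusted p = 0.00729) that reached a fold of 1.42 and so fell short of the fold threshold alone. Both lines thus had DF above NDF, and only the size set the call. PCDHB3 had 8.02 and 8.01 in PLKO DF against 7.29 and 7.35 in PLKO NDF, a rise of 0.69 (adjusted p = 0.00319). In V71 it had 7.27 and 7.61 in DF against 7.11 and 7.23 in NDF, a difference of 0.27 (95% interval 0.02 to 0.53, adjusted p = 0.171). The pseudogene PCDHB18P, between PCDHB14 and PCDHB15, rose by 0.64 in PLKO (adjusted p = 0.00242), a call that ended without PLKO DF replicate 2 (0.53, adjusted p = 0.0178). In V71 it differed by 0.50 (fold 1.42, adjusted p = 0.00918).

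No call was made in either line for PCDHB1, PCDHB2 and PCDHB8. PCDHB2 had 4.56 and 4.12 in V71 DF against 4.21 and 4.55 in V71 NDF, and 5.11 and 5.01 in PLKO DF against 4.78 and 5.02 in PLKO NDF. In V71 the DF and NDF values overlapped fully. The difference was -0.04 in V71 (95% interval -0.40 to 0.33) and 0.16 in PLKO (-0.21 to 0.52). PCDHB1, the dim gene, differed by 0.02 in V71 (-0.20 to 0.24) and 0.18 in PLKO (-0.04 to 0.40). PCDHB8 had 4.13 and 3.92 in PLKO DF against 3.28 and 3.63 in PLKO NDF, a difference of 0.57 that passed on p (adjusted p = 0.0409) but had a fold of 1.49. In V71 it had 3.29 and 3.56 in DF against 2.88 and 3.21 in NDF, a difference of 0.38 (adjusted p = 0.166). By position, PCDHB1, PCDHB2 and PCDHB3 are the first 3 genes of the cluster, and they had the 3 smallest differences in V71, whereas in PLKO the smallest were those of PCDHB2, PCDHB1 and PCDHB8. Of the 13 genes whose promoter window held GGTGGCGCT, 9 rose in V71 and 11 in PLKO, where 3.98% and 2.88% of all genes rose. Of the 4 beta genes without a promoter window, 2 rose in V71 and 4 in PLKO. The only window without the word was that of the dim PCDHB1, and a link between word and response was not tested. PCDHB2 and PCDHB8 carry the word, as printed above, and were called in neither line.

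Among the non-clustered genes the same comparison singled out PCDH9 and PCDH17. PCDH9, a delta-1 protocadherin of the nervous system on chromosome 13, had 6.16 and 6.06 in V71 DF against 5.23 and 5.23 in V71 NDF, and 6.82 and 6.86 in PLKO DF against 5.44 and 5.37 in PLKO NDF. All DF arrays were above all NDF arrays. It rose by 0.88 ± 0.08 in V71 (fold 1.84, adjusted p = 0.000113) and by 1.44 ± 0.08 in PLKO (fold 2.70, adjusted p = 4.46e-06). PCDH17, a delta-2 protocadherin that recruits the WAVE actin regulators to axon contacts in mice, lies on the same chromosome. Its values were 7.21 and 7.17 in V71 DF against 6.35 and 6.55 in V71 NDF, and 7.14 and 7.13 in PLKO DF against 6.54 and 6.45 in PLKO NDF. The 4 DF values lay within a narrow band above the 4 NDF values. It rose by 0.73 in V71 (adjusted p = 0.000654) and by 0.64 in PLKO (adjusted p = 0.00149).

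**Figure D3:**
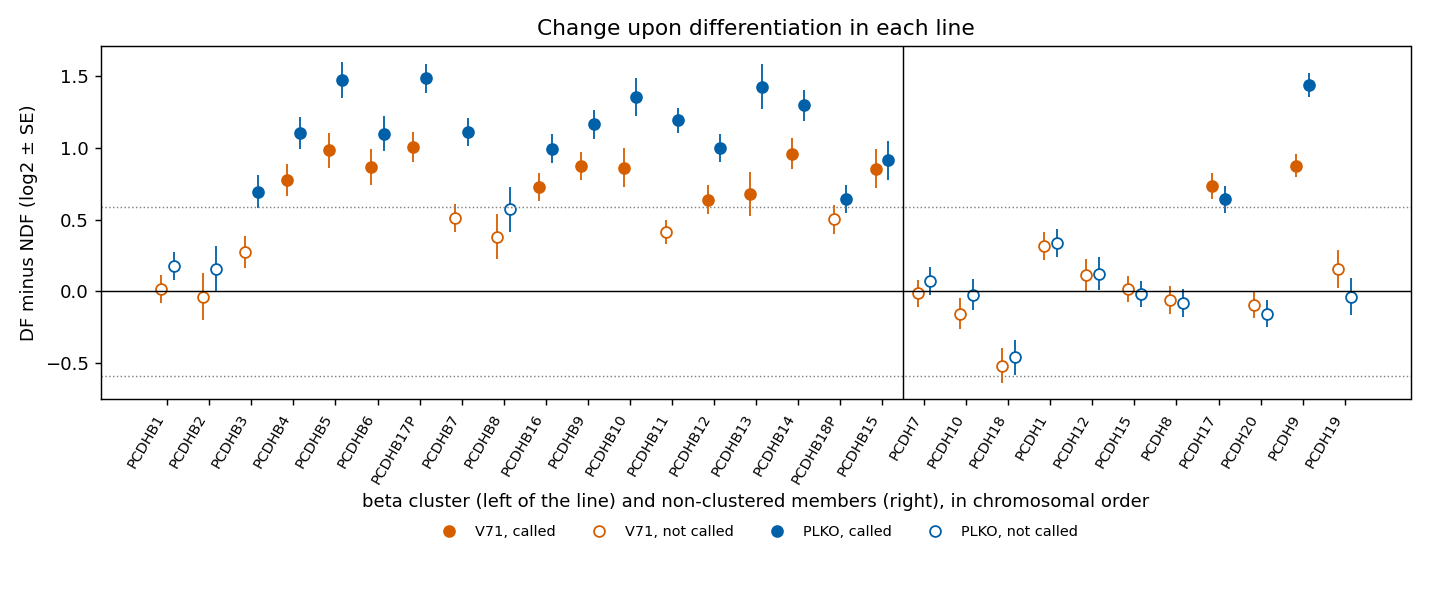
DF minus NDF difference in log2 intensity (y axis) with its SE as error bar, for each of the 29 protocadherins in V71 and in PLKO, with filled points for called genes, open points for the others and dotted lines at a 1.5-fold change. PCDHB17P stands at 1.0 in V71 and 1.48 in PLKO, PCDHB2 at -0.04 in V71 and 0.16 in PLKO, and most non-clustered genes lie near 0.

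PCDH18 and PCDH1 moved less. PCDH18, a delta-2 protocadherin on chromosome 4 whose mouse protein binds the adaptor Disabled-1, differed in the other direction. It had 5.35 and 5.30 in V71 DF against 6.03 and 5.66 in V71 NDF, and 6.67 and 6.84 in PLKO DF against 7.18 and 7.25 in PLKO NDF. DF was below NDF in both lines, by -0.52 in V71 (fold 1.43, adjusted p = 0.0211) and -0.46 in PLKO (fold 1.38, adjusted p = 0.0368), and the fold was under the threshold in each. PCDH1, a delta-1 protocadherin of epithelia and brain, differed by 0.32 in V71 (adjusted p = 0.0696) and 0.34 in PLKO (adjusted p = 0.0561). The other 7 non-clustered genes, PCDH7, PCDH8, PCDH10, PCDH12, PCDH15, PCDH19 and PCDH20, all lay below the array median in every group, and none was called in any comparison. PCDH10, which acts in axon growth and activity-dependent synapse elimination in mice, had 3.22 and 3.24 in V71 DF against 3.31 and 3.46 in V71 NDF, and 3.46 and 3.18 in PLKO DF against 3.33 and 3.35 in PLKO NDF. Its groups were not separated beyond the replicate spread. PCDH8, an activity-induced synaptic protein in the rat, ranged from 3.71 to 3.97 over the 8 arrays, and PCDH12, known from endothelial cells, from 3.36 to 3.72.

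**Figure D4:**
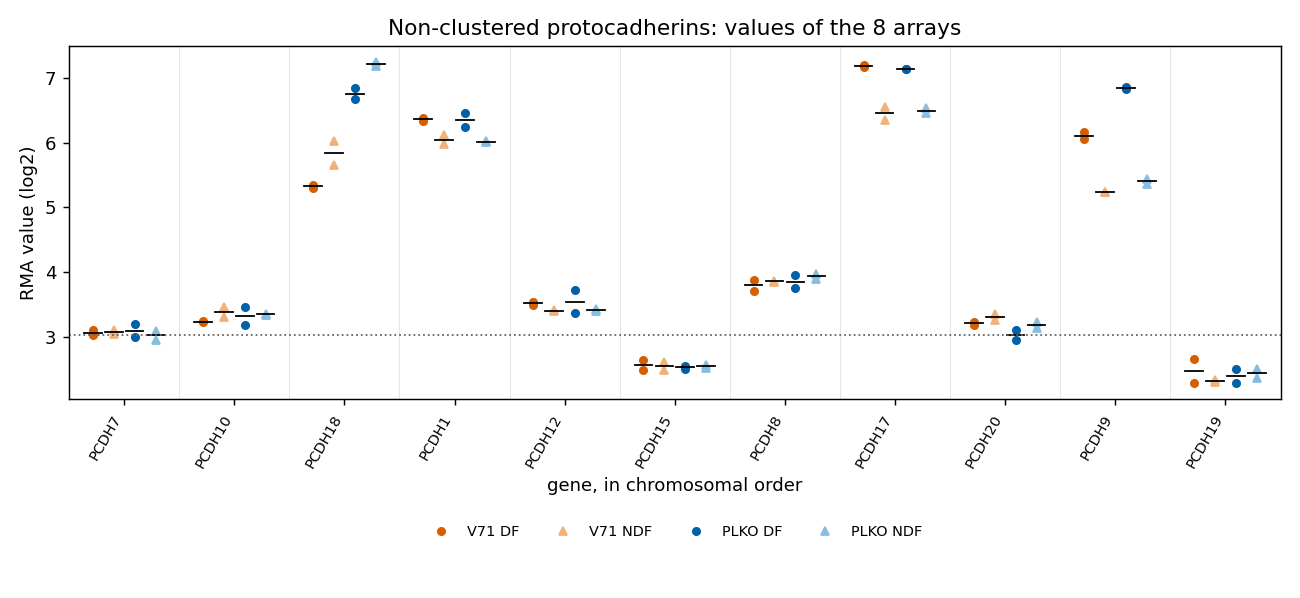
Log2 intensity (y axis) of the 11 non-clustered protocadherins (x axis) on each of the 8 arrays, with V71 and PLKO in separate colours, circles for DF and triangles for NDF, black bars for group means and a dotted line at the mean lower quartile. PCDH9 and PCDH17 have all DF values above all NDF values, PCDH18 has 5.35 and 5.30 in V71 DF against 6.67 and 6.84 in PLKO DF, and PCDH15 and PCDH19 lie at the bottom.

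Next, the lines were compared with each other in each condition. In DF, 9 of the 18 beta genes and 2 of the 11 non-clustered genes had lower expression in V71 than PLKO and none had higher, where 1.26% of all genes measured were lower. In NDF, 1 beta gene and 1 non-clustered gene were lower and none higher, where 1.54% of all genes were lower. The median V71 minus PLKO difference of the beta genes was -0.62 in DF and -0.29 in NDF, with all 18 below 0 in DF and 15 of 18 in NDF. For the non-clustered genes, 7 of them below the array median in every group, it was -0.03 in DF and -0.02 in NDF. Over all genes it was 0.01 in both. The DF arrays of PLKO enter this comparison and also the differentiation of PLKO, so those results are not independent of each other.

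The largest line differences of the beta cluster in DF were those of PCDHB13 and PCDHB11. PCDHB13 had 3.78 and 4.30 in V71 DF against 5.40 and 5.30 in PLKO DF, and was lower in V71, by -1.31 ± 0.15 (fold 2.47, adjusted p = 0.00129). For PCDHB11 the values were 4.85 and 4.85 in V71 DF against 5.82 and 5.97 in PLKO DF, a difference of -1.05 ± 0.09 (fold 2.07, adjusted p = 0.000132). In both genes the lines did not overlap. PCDHB17P, PCDHB6, PCDHB5, PCDHB12, PCDHB7, PCDHB2 and PCDHB4 were also lower in V71 DF, by -0.97 to -0.63. The calls of 2 of them rested on single arrays. PCDHB2 had 4.56 and 4.12 in V71 DF against 5.11 and 5.01 in PLKO DF, a difference of -0.72 (adjusted p = 0.0356) that was not called without V71 DF replicate 2 (-0.50, adjusted p = 0.158), PLKO DF replicate 1 (-0.67, adjusted p = 0.166), PLKO DF replicate 2 (-0.76, adjusted p = 0.0925) or either PLKO NDF replicate (-0.72, adjusted p = 0.0545 for each). PCDHB4 had 7.34 and 7.61 in V71 DF against 8.0 and 8.21 in PLKO DF, a difference of -0.63 (adjusted p = 0.0116) that was not called without V71 DF replicate 1 (-0.50, adjusted p = 0.0912) or PLKO DF replicate 2 (-0.53, adjusted p = 0.0662).

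PCDHB14 and PCDHB15 were not called in this comparison. PCDHB14 differed by -0.21 in DF (adjusted p = 0.378) and 0.13 in NDF, and PCDHB15 by -0.32 in DF (adjusted p = 0.27). PCDHB15 had 5.59 and 5.59 in V71 DF against 5.88 and 5.95 in PLKO DF. Its DF values did not overlap, but the difference did not pass. The pseudogene between them, PCDHB18P, differed by -0.57 in DF (fold 1.49, adjusted p = 0.0109, short of the fold threshold) and by -0.43 in NDF (adjusted p = 0.0607). In NDF the called beta gene was PCDHB6, with 5.78 and 5.89 in V71 NDF against 6.61 and 6.53 in PLKO NDF, a difference of -0.73 ± 0.12 (fold 1.66, adjusted p = 0.013). The same gene was also lower in V71 than in PLKO in DF, with 6.53 and 6.88 in V71 DF against 7.57 and 7.77 in PLKO DF (-0.96, adjusted p = 0.00202). The NDF call ended without V71 NDF replicate 2 (-0.68, adjusted p = 0.099), PLKO NDF replicate 2 (-0.70, adjusted p = 0.124) or PLKO NDF replicate 3 (-0.77, adjusted p = 0.0842).

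PCDH18 was the protocadherin that differed most between the lines, and in both conditions. From the values given above, it was lower in V71 by -1.43 ± 0.12 in DF (fold 2.69, adjusted p = 0.000184) and by -1.37 ± 0.12 in NDF (fold 2.58, adjusted p = 0.000265). V71 and PLKO values did not overlap in either condition. PCDH9 was lower in V71 DF, by -0.73 ± 0.08 (adjusted p = 0.00106), and differed by -0.17 in NDF (95% interval -0.36 to 0.01, adjusted p = 0.421). For PCDH17 the difference was 0.05 in DF (adjusted p = 0.867), and for PCDH1 it was 0.01 in DF (95% interval -0.21 to 0.23). Without moderation of the variance, 1 of the 9 beta calls (PCDHB11) and 1 of the 2 non-clustered calls (PCDH9) held in DF and none in NDF. PCDH18 then had an adjusted p of 0.0575 in DF and 0.0819 in NDF.

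**Figure D5:**
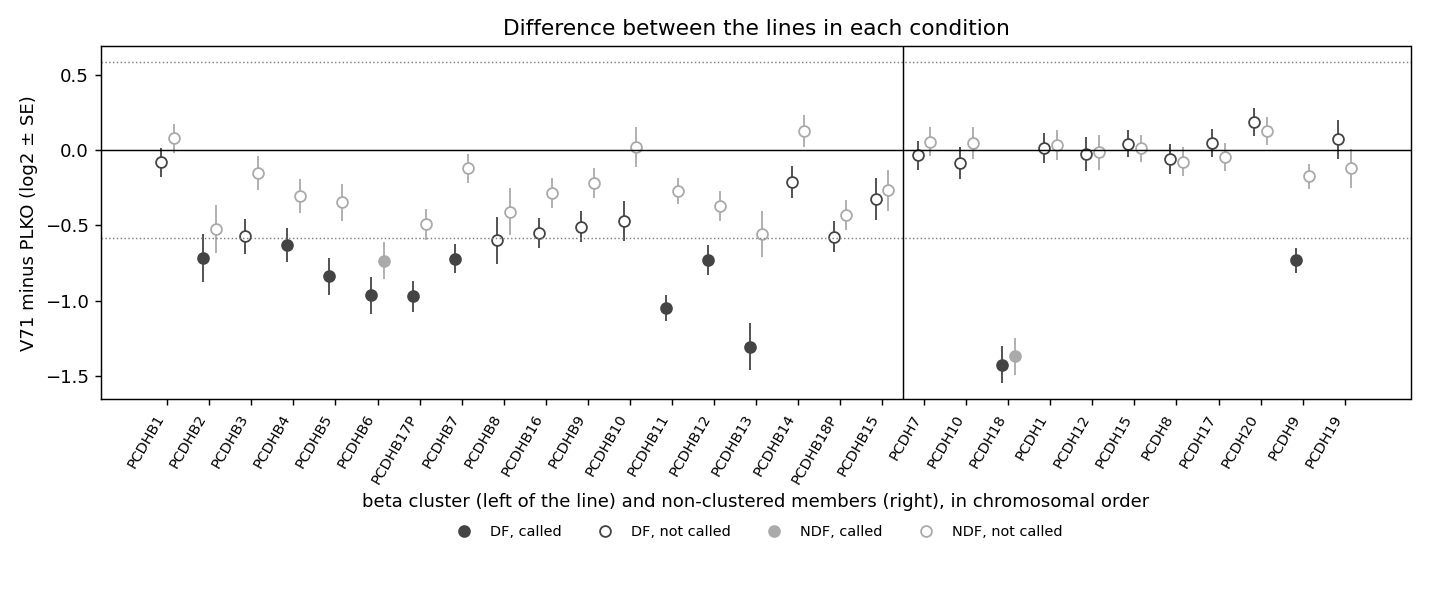
V71 minus PLKO difference in log2 intensity (y axis) with its SE as error bar, for each of the 29 protocadherins in DF and in NDF, with filled points for called genes, open points for the others and dotted lines at a 1.5-fold change. PCDH18 stands at -1.43 in DF and -1.37 in NDF, and PCDHB13 and PCDHB11 are the beta genes farthest below 0 in DF, at -1.31 and -1.05.

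Some markers of substrate-adherent (S-type) neuroblastoma cells, a flat mesenchymal form that can arise in such cultures, were lower in V71. Over 22 such genes the summed linear level was 1309 to 1356 in V71 DF against 1813 to 1855 in PLKO DF, and 1335 to 1455 in V71 NDF against 2068 to 2104 in PLKO NDF. In V71, 5 of the 22 were lower in DF, where 1.26% of all genes were, and 9 in NDF, where 1.54% were. None was higher, but the median V71 minus PLKO difference over the 22 was 0.01 in DF and -0.13 in NDF. Upon differentiation 1 rose and 1 fell in V71, where 3.98% of all genes rose and 3.55% fell, and 5 fell in PLKO, where 4.16% did. The difference between responses was called for 4 of the 22 (VIM, DCN, SNAI2 and NOTCH2), all above 0, where 1.09% of all genes were. The defining markers VIM and DCN were dim in V71 DF, DCN in V71 NDF and PRRX1 in PLKO NDF. The part of these cells in the protocadherin differences was not tested. Of 4 Schwann cell genes, none was called, and their summed level was 57.3 to 66.23 over all groups. The summed level of the 12 noradrenergic genes was 7450 to 7519 in V71 DF against 5524 to 5853 in PLKO DF, and 6877 to 7170 in V71 NDF against 6113 to 6254 in PLKO NDF. In DF, CHGB and GAP43 were called higher in V71, where 1.81% of all genes were, and DBH lower, where 1.26% were. In NDF, CHGA, CHGB and SCG2 were called higher, where 113 of 18377 genes were, and none lower. The median V71 minus PLKO difference over the 12 was 0.16 in both conditions.

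Whether differentiation acted differently in the lines was asked of the difference between the 2 differentiation responses, V71 minus PLKO. Of the 18 beta genes 1, PCDHB11, passed with a smaller response in V71, where 0.305% of all genes measured were called in that direction, and of the 11 non-clustered genes 0 passed. PCDHB11 had 4.85 and 4.85 in V71 DF against 4.43 and 4.43 in V71 NDF, and 5.82 and 5.97 in PLKO DF against 4.70 and 4.72 in PLKO NDF. In PLKO it rose by 1.19 (fold 2.28, adjusted p = 1.61e-05), while in V71 the difference was 0.41 (fold 1.33, adjusted p = 0.0106). The responses differed by -0.78 ± 0.12 (95% interval -1.05 to -0.50, limma adjusted p = 0.0174). This call ended when any V71 array was left out (adjusted p = 0.0592 to 0.0717), or PLKO NDF replicate 2 (0.101) or 3 (0.0994), with a difference between -0.79 and -0.77 throughout. It also ended without moderation of the variance (adjusted p = 0.141) and with the replicate number as a block (adjusted p = 0.0509).

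For the other 17 beta genes the difference between responses was also below 0, at a median of -0.33 over the 18, against -0.00 over all genes, but did not pass. At an unadjusted p under 0.05, 8 of the 18 beta genes and 1 of the 11 non-clustered genes were found, where 10.2% of all genes measured were. PCDHB13 differed by -0.75 ± 0.22 (adjusted p = 0.233) and PCDHB7 by -0.60 ± 0.14 (adjusted p = 0.1085). PCDH9 differed by -0.56 ± 0.12 (95% interval -0.82 to -0.30, adjusted p = 0.075). The interval for PCDH18, -0.45 to 0.33, and that for PCDH17 both included 0. All 18 values share the same 8 arrays, and the count of signs is given without a test.

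The genes around the clusters were counted to see whether the chromosomal region changed as a whole. Of 26 genes that flank or lie within the clusters on chromosome 5, none was called between the lines in DF or in NDF, with medians of -0.01 in both. Some passed on p with a fold under the threshold, as ZMAT2 did (-0.52 in DF, adjusted p = 0.00631, and -0.58 in NDF, fold 1.49, adjusted p = 0.00507), and APBB3 in DF (-0.47, adjusted p = 0.0176), both named after their values were seen. Upon differentiation 1 of the 26 rose in V71, where 3.98% of all genes rose, and 2 in PLKO, where 2.88% did. None fell, with medians of 0.11 in V71 and 0.10 in PLKO. SLC25A2, a mitochondrial ornithine carrier whose gene lies between the beta and gamma clusters, was among them. Its values were 5.39 and 5.63 in V71 DF against 5.11 and 4.89 in V71 NDF, and 5.59 and 5.56 in PLKO DF against 4.65 and 4.56 in PLKO NDF. DF exceeded NDF in both lines, by 0.97 ± 0.11 in PLKO (adjusted p = 0.000318) and by 0.51 in V71 (fold 1.42, adjusted p = 0.0142, not called). It differed by -0.06 between the lines in DF (95% interval -0.31 to 0.18). TAF7, a subunit of the general transcription factor TFIID and the other gene between those clusters, differed by 0.16 in V71 (adjusted p = 0.493) and 0.09 in PLKO (adjusted p = 0.766). Farther out, NDFIP1, an adaptor of NEDD4 ubiquitin ligases, rose by 0.60 in PLKO (adjusted p = 0.00212), a call that ended without PLKO DF replicate 2 (0.52). In V71 NDFIP1 differed by 0.54 (fold 1.46, adjusted p = 0.00352), short of the fold threshold alone. FCHSD1, a membrane-bending adaptor, rose by 0.73 in V71 (adjusted p = 0.00436), and this ended without V71 NDF replicate 2 (0.52, adjusted p = 0.0216).

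Among 25 regulators of clustered protocadherin promoters, CTCF, cohesin and DNA methyltransferases included, few were called. Some cohesin genes passed on p upon differentiation with folds under the threshold. In PLKO these were RAD21 (-0.40, adjusted p = 0.0114), SMC1A (-0.53, adjusted p = 0.00477), SMC3 (-0.33, adjusted p = 0.031) and STAG2 (-0.41, adjusted p = 0.0356). In V71 they were RAD21 (-0.35, adjusted p = 0.0222) and SMC3 (-0.48, adjusted p = 0.00437). DNMT3B did so in PLKO (-0.42, adjusted p = 0.0477). EZH2, the methyltransferase of Polycomb repressive complex 2, fell upon differentiation in both lines. It averaged 7.39 in V71 DF against 8.38 in V71 NDF (-1.0, adjusted p = 4.96e-05), and 7.44 in PLKO DF against 8.51 in PLKO NDF (-1.07, adjusted p = 2.7e-05). DNMT1, the maintenance DNA methyltransferase, fell in PLKO by 0.75 (adjusted p = 0.000759) and differed by -0.53 in V71 (fold 1.45, adjusted p = 0.00583). TET1, which oxidises methylcytosine, fell in V71 by 0.67 (adjusted p = 0.00268, not called without V71 DF replicate 1, -0.53) and differed by -0.55 in PLKO (fold 1.46, adjusted p = 0.00896). Of the 25, 2 fell in V71, where 3.55% of all genes fell, and 2 in PLKO, where 4.16% did. None was called as rising in either line. REST, a repressor of neuronal genes, passed on p in V71 with a positive difference (0.45, fold 1.37, adjusted p = 0.0359). Between the lines, REST averaged 5.91 in V71 NDF against 6.71 in PLKO NDF and was lower in V71 (-0.80, adjusted p = 0.00679). It was the only regulator called in NDF, where 1.54% of all genes were lower. That call ended without V71 NDF replicate 2 (-0.67, adjusted p = 0.061), PLKO NDF replicate 2 (-0.80, adjusted p = 0.0675) or PLKO NDF replicate 3 (-0.80, adjusted p = 0.0687). In DF no regulator was called. The cohesin gene SMC1A was higher in V71 DF on p alone (0.45, fold 1.37, adjusted p = 0.0244), and REST differed by -0.44 (adjusted p = 0.0761).

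Of 26 protein partners and signaling genes of protocadherins, 23 were called in no comparison. Upon differentiation 2 rose and 1 fell in V71, where 3.98% of all genes rose and 3.55% fell. In PLKO 0 rose and 1 fell, where 2.88% of all genes rose and 4.16% fell. PRKCA, protein kinase C alpha, a kinase of the pathway through which clustered protocadherins act on dendrites in mice, fell upon differentiation in both lines. It averaged 6.84 in V71 DF against 8.42 in V71 NDF (-1.58, adjusted p = 1.33e-05), and 6.70 in PLKO DF against 8.06 in PLKO NDF (-1.35, adjusted p = 2.61e-05). CYFIP2, a subunit of the WAVE complex, rose in V71 by 0.73 (adjusted p = 0.00054) and differed by 0.47 in PLKO (fold 1.39, adjusted p = 0.00719). CDH2, N-cadherin, which forms complexes with several delta-2 protocadherins, rose in V71 by 0.71 (adjusted p = 0.000817) and differed by 0.55 in PLKO (fold 1.46, adjusted p = 0.00382). It was higher in V71 DF, with a mean of 9.70, against 9.05 in PLKO DF (0.65, adjusted p = 0.00376), where 1.81% of all genes were higher, and so ran opposite to PCDH18 and PCDH9 there. Between the lines in NDF none of the partners was called, although CDH2 (0.49, adjusted p = 0.0242), NLGN1 (-0.53, adjusted p = 0.0231) and PSEN2 (-0.49, adjusted p = 0.0231) passed on p with folds under the threshold. None was called for the difference between responses.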

How the data were processed

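Arrays were normalized and summarized by the authors by RMA, the robust multi-average method, using Partek 6.5, as the methods and the submitters' processing notes state. The deposited values are log2 intensities and were used with no further normalization. All 8 columns were matched to samples by title. The table has 28869 probe sets, of which 19310 carry 1 gene symbol, 1752 several and 7807 none. The genome build of the array annotation was not given in the sources used here. For the 685 genes with more than 1 probe set the one with the highest mean was taken, which gave 18377 genes. Promoter sequences are from RefSeq, GRCh38.p14.

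The 4 group means were modelled with limma 3.58.1 under R 4.3.3, with moderated variances (4 residual and 5.43 prior degrees of freedom), and p-values were adjusted over all 28869 probe sets. Intervals are at 95%. The threshold of 1.5-fold is that of the methods. Precision is limited by there being 2 arrays a group. Replicates carry the numbers 1 and 2 in DF and 2 and 3 in NDF, and no block was used. The script was tested on simulated data.

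The named genes are every protocadherin with a probe set of its own, the called genes of the 3 lists (at most 4 per list and comparison), and SLC25A2 and TAF7. The protocadherins, the lists and the comparisons were chosen with earlier results of these data known. Alternatives were no moderation (the analysis of variance of the methods), a trended prior, 3 other normalizations, a filter on dim probe sets, other thresholds and adjustment, leaving out each array, a replicate block, and a fit to the compared arrays alone. Figures were drawn with matplotlib 3.10.9.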

Additional observations from a re-analysis of the deposited data

Results flagged for a closer look

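PCDHB11 stood out because its response to differentiation differed between the lines by a test of the difference itself: -0.78 on the log2 scale (V71 minus PLKO, limma adjusted p = 0.0174, with 0.012 to 0.141 over the alternatives tried). DF exceeded NDF on all arrays of both lines. The other 28 protocadherins did not pass this test.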

How the results depend on the processing

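Of 44 pairs of a protocadherin and a comparison that were called, 13 were called under every alternative and 0 changed sign. Without moderation 19 of the 44 were not called. The beta genes lower in V71 then numbered 1 in DF (PCDHB11) and 0 in NDF, the non-clustered ones 1 in DF (PCDH9) and 0 in NDF. The beta genes that rose in V71 were then 6, and 0 passed for the difference between responses. At a fold of at least 2, 16 of the 44 remained called: 2 beta genes and 1 non-clustered gene in the line comparison in DF, 0 beta genes and 1 non-clustered gene in NDF, 1 beta and 0 non-clustered genes upon differentiation of V71, 10 beta genes and 1 non-clustered gene upon that of PLKO, and 0 beta genes for the difference between responses. With no fold threshold, 2 beta genes were called between the lines in NDF. After quantile normalization was applied again, 1 non-clustered gene (PCDH9) passed for the difference between responses. Rescaling moved the median of all genes by less than 0.1.

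With each array left out in turn, the called beta genes numbered 7 to 9 in the line comparison in DF, 0 to 1 in NDF, 9 to 12 upon differentiation of V71, 14 to 16 upon that of PLKO and 0 to 1 for the difference between responses. The called non-clustered genes numbered 2 in DF, 1 in NDF, 2 to 3 in V71, 2 in PLKO and 0.

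With the replicate number as a block, 0 beta genes passed for the difference between responses (PCDHB11, adjusted p = 0.0509), 10 beta and 2 non-clustered genes were lower in V71 DF, and 1 and 1 in V71 NDF. The replicate differences of the lines, taken by number, had a correlation over all probe sets of 0.19 in DF and -0.18 in NDF. Each value comes from a single replicate difference per line, so it cannot decide whether the numbers pair the samples. With the NDF numbers crossed, a choice made after seeing the data, 9 beta and 2 non-clustered genes were called in DF, 1 and 1 in NDF, and 1 and 0 for the difference between responses. No paired analysis was possible because DF and NDF share 1 replicate number for the comparisons upon differentiation. The cause of these shifts was not tested. PCDHB1, PCDH15 and PCDH19 lay below the lower quartile in all groups, where the arrays limit what can be detected.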

Other observations

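The alpha cluster was read by 1 probe set annotated to 15 symbols, so its signal cannot be given to a single gene. It had 5.26 and 5.24 in V71 DF against 5.10 and 4.97 in V71 NDF, and 5.46 and 5.33 in PLKO DF against 5.06 and 5.10 in PLKO NDF. DF minus NDF was 0.22 in V71 (limma adjusted p = 0.166) and 0.32 in PLKO (fold 1.25, adjusted p = 0.0455), and neither reached the fold threshold. V71 minus PLKO was -0.15 in DF (95% interval -0.35 to 0.05) and -0.04 in NDF.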
